A study of Mus musculus with 10 samples.

Results

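The pentose phosphate pathway enzymes examined here are 8 genes, G6pdx, H6pd, Pgls, Pgd, Rpia, Rpe, Tkt and Taldo1, found by gene symbol among the 40503 genes of the deposited table, together with the 34 of 84046 transcripts listed for them. All 8 genes passed the filter on low values and were among the 17038 genes tested. RNA came from gonadal white adipose tissue (fat around the ovaries and uterus) of 12-week-old female C57BL/6 mice. There were 5 libraries from mice labelled KO, in which Med19, a subunit of Mediator, the coactivator that bridges DNA-bound activators and the polymerase, is deleted in adipose tissue after tamoxifen (Med19-iAKO), and 5 from mice labelled WT. For the KO mice the labels give tamoxifen at 100 mg/kg for 5 days and collection 14 days later. The sources used here do not say whether WT mice had tamoxifen or which promoter drives the recombinase. Nothing in the labels gives a batch, and each library carries its own number, read here as that of an animal.

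The pathway branches off glycolysis at glucose 6-phosphate. Its oxidative branch yields NADPH, the reductant that fat cells spend on fatty acid synthesis and on peroxide defence, and ends in ribulose 5-phosphate. Its non-oxidative branch then reshuffles the carbon skeletons through reversible reactions, either to ribose 5-phosphate for nucleotides or back to fructose 6-phosphate and glyceraldehyde 3-phosphate. A separate enzyme, H6PD, carries out the first oxidative steps inside the endoplasmic reticulum.

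Of the 8 genes, 1 was called lower in the KO-labelled group and 0 higher. The gene that fell was Tkt, which encodes transketolase, the thiamine-dependent enzyme that moves carbon units in pairs in the non-oxidative branch. Its level was 80.9 ± 7.5 RPKM in the KO-labelled group and 167 ± 31 RPKM for the WT mice (SD, 5 libraries each; RPKM is reads scaled to gene length and library size). The other 7 genes, including the 3 NADPH-producing dehydrogenases, were not called, and each had overlapping groups. Over all genes tested, 5.95% were called, 1.95% lower and 4.00% higher, at a limma adjusted p under 0.05 (Benjamini-Hochberg over all genes). That split of 332 lower and 681 higher calls became 416 and 102 with median-ratio scaling and 392 and 149 with quantile normalization. At an unadjusted p under 0.05 the counts among the 8 were the same, 1 lower and 0 higher, both with limma on log2(RPKM + 0.5) and with voom on recovered reads. No share of all genes at an unadjusted p was taken, so the shares above are no measure for unadjusted counts here or below. Over all genes, voom on recovered reads called 377 lower and 857 higher at an adjusted p under 0.05.

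**Figure D1:**
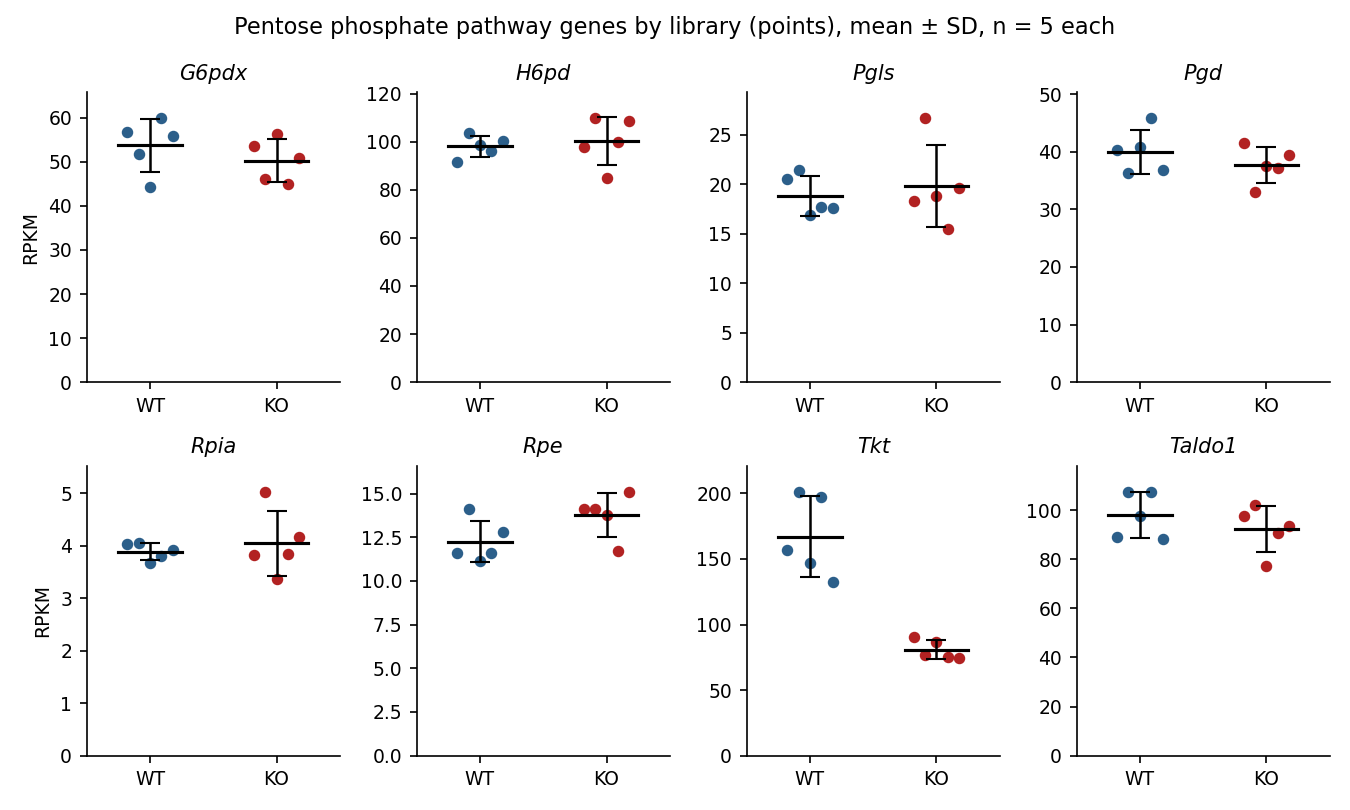
Level of each of the 8 genes in RPKM (y axis, from 0) in WT (blue) and KO-labelled (red) libraries, with 1 point per library and bars for mean ± SD (n = 5 each). Tkt is the gene whose groups are apart, with the KO-labelled libraries between 74.8 and 90.8 RPKM and the WT libraries between 133 and 201 RPKM.

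Read totals over genes, recovered from the RPKM, spanned 14440546 to 20178081, with 15178107 to 20178081 in the KO-labelled group and 14440546 to 16185629 in WT. Reads per library for the 8 genes ran from 294 at the lowest for Rpia to 19287 at the highest for Tkt. Counting error alone at each gene's lowest library was 5.83% for Rpia, at 294 reads, and 1.15% for Tkt, at 7507 reads. Med19 itself did not separate the groups, at 7.99, 5.58, 6.83, 6.84 and 6.73 RPKM in KO 1, 4, 7, 8 and 17 and 7.58, 7.64, 6.11, 6.55 and 5.62 RPKM in WT 2, 9, 19, 86 and 89 (exact permutation p = 0.881, 2-sided, over 252 assignments whose smallest p is 0.0079). Its RNA level therefore did not check the labels, and every direction given here rests on them.

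Because Tkt and Taldo1 encode the neighbouring enzymes of carbon exchange and only Tkt was called, the 250 bases before the RefSeq start of each gene are shown, 5′ to 3′ on the plus strand of build GRCm38.p6. Capitals mark matches, on either strand, to the GC box motif, whose letters are GGGCGG, or to the shorter CCAAT motif. The Tkt window is chr14:30548881-30549130 and the Taldo1 window is chr7:141391910-141392159.
Tkt: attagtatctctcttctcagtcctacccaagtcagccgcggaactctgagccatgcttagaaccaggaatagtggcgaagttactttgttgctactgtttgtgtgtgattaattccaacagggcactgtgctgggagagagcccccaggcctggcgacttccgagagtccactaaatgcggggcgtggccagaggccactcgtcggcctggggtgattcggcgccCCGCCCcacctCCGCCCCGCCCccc
Taldo1: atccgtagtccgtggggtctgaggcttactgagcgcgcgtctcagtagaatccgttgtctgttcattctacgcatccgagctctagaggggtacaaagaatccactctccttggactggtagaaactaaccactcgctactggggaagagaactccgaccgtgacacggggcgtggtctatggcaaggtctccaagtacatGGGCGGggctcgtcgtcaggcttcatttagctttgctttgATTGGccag

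The Tkt window held 3 GC boxes, a pair of which overlap by a base, all on the minus strand within 25 bases of the start, and 0 CCAAT boxes. The Taldo1 window held 1 GC box, 49 bases before the start, and 1 CCAAT box. A GC box lay in a window of 7 of the 8 genes (9 windows, since Pgd has a pair), against 33.0% of the 32536 different windows of this length in the table, and a CCAAT box in 3 of the 8 genes, against 33.8%. Of the other motifs searched on both strands, the E-box CACGTG (6.04% of all windows) and the nuclear receptor half-site AGGTCA (14.0%) were in the windows of 0 and 1 of the 8 genes. The antioxidant response core TGACNNNGC (10.2%) and the sterol response core CACNCCAC (5.30%) were in those of 1 gene each, G6pdx and Pgd. These are letter matches in a short window and say nothing of binding.

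The entry to the oxidative branch did not differ detectably. G6pdx encodes the glucose-6-phosphate dehydrogenase that commits carbon to the pathway and makes its first NADPH. Its RPKM was 53.6, 46.0, 56.2, 44.9 and 50.8 in KO 1, 4, 7, 8 and 17 and 56.8, 51.9, 44.2, 59.9 and 55.9 in WT 2, 9, 19, 86 and 89. The ranges overlapped almost fully, with the lowest value of all in WT 19. The log2 change was -0.09 (SE 0.09, 95% interval -0.30 to 0.12; limma adjusted p = 0.601). It moved to -0.16 without WT 19 and to -0.18 under both median-ratio scaling and quantile normalization, and was called in none of these (limma adjusted p 0.282 to 0.430).

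Pgls encodes the lactonase that opens 6-phosphogluconolactone, and Pgd the dehydrogenase that releases carbon dioxide and makes the branch's other NADPH. Pgls RPKM was 18.3, 26.7, 18.8, 15.5 and 19.7 in the KO-labelled group (same order) and 20.5, 21.4, 16.9, 17.7 and 17.6 in WT. KO 4 stood above the other 9 libraries, and the KO-labelled group varied more (SD 4.15) than WT (SD 1.99). Pgd RPKM was 41.5, 33.0, 37.6, 37.1 and 39.4 in the KO-labelled group and 40.2, 36.3, 40.7, 45.8 and 36.8 in WT. For Pgd it was KO 4 that was lowest of the 10 and WT 86 that was highest. The log2 changes were 0.05 (SE 0.13, 95% interval -0.23 to 0.34; limma adjusted p = 0.844) for Pgls and -0.08 (SE 0.08, 95% interval -0.26 to 0.10; limma adjusted p = 0.586) for Pgd. Summed over G6pdx, Pgls and Pgd, the cytosolic oxidative steps were at 97.4 to 113 RPKM in the KO-labelled group and 102 to 123 RPKM in WT.

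H6pd, whose product makes NADPH in the lumen of the endoplasmic reticulum, had the highest mean gene-level RPKM of the 8 in the KO-labelled group. That rank depends on the lengths the reads were divided by. Per transcript, the main H6pd model averaged 69.5 RPKM in the KO-labelled group, below coding Tkt at 102 and coding Taldo1 at 137 RPKM. At the gene level H6pd was at 98.0, 110, 84.9, 99.6 and 109 RPKM in KO 1, 4, 7, 8 and 17 and at 91.7, 104, 98.8, 96.2 and 100 RPKM in WT. Both the lowest and the highest library were KO-labelled, and the log2 change was 0.03 (SE 0.08, 95% interval -0.15 to 0.20; limma adjusted p = 0.882). A user of that NADPH, the cortisone reductase gene Hsd11b1, was at 3.08 ± 0.86 RPKM in the KO-labelled group and 3.75 ± 1.34 RPKM in WT (limma adjusted p = 0.548). The transporter gene Slc37a4, which carries glucose 6-phosphate into the endoplasmic reticulum, was at 7.89 ± 1.65 and 7.36 ± 1.16 RPKM (limma adjusted p = 0.772).

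The pentose phosphate isomerase and epimerase genes were the lowest of the 8. Rpia makes ribose 5-phosphate from ribulose 5-phosphate and was at 3.82, 5.02, 3.36, 3.85 and 4.17 RPKM in the KO-labelled group and at 4.02, 4.04, 3.67, 3.79 and 3.91 RPKM in WT. The KO-labelled values enclosed all WT values (log2 change 0.04, SE 0.09; limma adjusted p = 0.832). Rpe makes xylulose 5-phosphate, a substrate of transketolase. It was at 14.1, 14.1, 13.8, 11.7 and 15.1 RPKM in the KO-labelled group and at 11.6, 14.1, 11.2, 11.6 and 12.8 RPKM in WT. KO 8 lay among the WT values and WT 9 among the KO-labelled ones, and the log2 change of 0.16 (SE 0.08, 95% interval -0.02 to 0.35) did not pass (limma adjusted p = 0.249).

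Taldo1 encodes transaldolase, which works beside transketolase and moves a dihydroxyacetone unit between sugars. It was at 97.7, 102, 77.2, 90.9 and 93.6 RPKM in the KO-labelled group and at 89.2, 107, 97.6, 107 and 88.1 RPKM in WT. The groups overlapped, with KO 7 lowest (log2 change -0.09, SE 0.09, 95% interval -0.29 to 0.12; limma adjusted p = 0.617). Median-ratio scaling and quantile normalization moved the log2 changes of Taldo1 to -0.18 under both, of Pgd to -0.17 under both, and of Rpe to 0.075 and 0.077, with none called.

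Tkt was at 90.8, 76.8, 87.0, 75.0 and 74.8 RPKM in KO 1, 4, 7, 8 and 17 and at 157, 201, 147, 197 and 133 RPKM in WT 2, 9, 19, 86 and 89. The highest KO-labelled library, KO 1, lay below the lowest WT library, WT 89, and all KO-labelled libraries lay below all WT libraries in 2.15% of genes tested and above them in 6.96%. The log2 value fell by 1.03 (SE 0.12, 95% interval -1.30 to -0.75; limma adjusted p = 0.00127), a KO to WT ratio of 0.491 (95% interval 0.406 to 0.594). Falls of 1 or more on the log2 scale were called in 0.640% of genes. In whole tissue, fewer adipocytes and less of an RNA per adipocyte cannot be told apart. The WT libraries varied more than the KO-labelled ones, with a coefficient of variation of 18.4% against 9.27%.

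**Figure D2:**
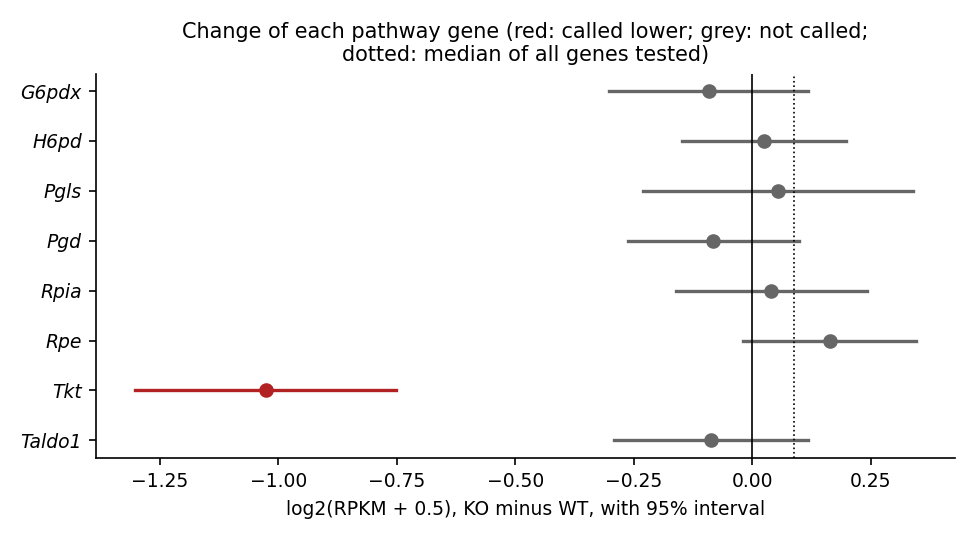
Log2 change of each gene, KO-labelled minus WT, on the log2(RPKM + 0.5) scale (x axis), with its 95% interval from limma. Tkt, in red, lies at -1.03, and the intervals of the other 7 genes, in grey, all span 0 and lie between -0.30 and 0.35; the dotted line is the median of all genes tested, 0.089.

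Ratios of Tkt to the other 7 genes were taken after the values were seen and are a description, with no test, since all 7 share the Tkt values. The ratio of Tkt to Taldo1 was 0.930, 0.753, 1.13, 0.825 and 0.799 in KO 1, 4, 7, 8 and 17 and 1.76, 1.87, 1.503, 1.83 and 1.505 in WT 2, 9, 19, 86 and 89, with no overlap. The ratio of Tkt to G6pdx was 1.61 ± 0.10 in the KO-labelled group and 3.13 ± 0.58 in WT (SD, n = 5 each). The log2 differences of the 7 ratios lay between -1.20, for Tkt to Rpe, and -0.94, for Tkt to G6pdx.

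The order of gene-level RPKM changed with Tkt. In WT it was Tkt, H6pd, Taldo1, G6pdx, Pgd, Pgls, Rpe and Rpia from highest to lowest, and Tkt lay above H6pd in 5 of 5 libraries with no overlap of ranges. H6pd and Taldo1 could not be ordered in WT (98.1 and 97.9 RPKM, with H6pd higher in 3 of 5 libraries), and the ranges of G6pdx and Pgd overlapped although G6pdx was higher in 5 of 5. In the KO-labelled libraries Tkt, at 80.9 RPKM, came after H6pd at 100.2 RPKM and Taldo1 at 92.2 RPKM, with overlapping ranges. The lower 5 kept the order G6pdx, Pgd, Pgls, Rpe and Rpia. Tkt made up 34.0% of the summed RPKM of the 8 genes in WT and 20.3% in the KO-labelled group. The sum of the 8 was 447.8 to 539.9 RPKM in WT and 379 to 418 RPKM in the KO-labelled group, while the sum of the 7 genes other than Tkt was 313 to 342 and 292 to 336 RPKM. Levels of different genes depend on the length the reads were divided by, which can include retained introns. It was 6447 bases for Pgd, 5359 for Rpia and 5236 for H6pd, as in GENCODE M21. For Tkt (6533) and Taldo1 (1998) it was inferred as the smallest length giving whole reads. Per transcript the order differed. Coding Tkt, at 95.3 to 113 RPKM in the KO-labelled group and 172 to 260 in WT, lay above the main H6pd transcript (58.8 to 79.4 and 63.1 to 69.5 RPKM) in both groups. It lay below coding Taldo1 in the KO-labelled group (114 to 146 RPKM) and above it in WT (128 to 159 RPKM).

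In the transcript table reads had been divided among overlapping models by a method not given in the sources used here. Of the 34 transcripts, 27 were tested, 1 was called lower and 0 higher, where 0.544% of the 44475 transcripts tested were called, 0.452% lower and 0.0922% higher. At an unadjusted p under 0.05 there were 5 lower and 0 higher, with no share over all transcripts taken at that threshold. All but ENSMUST00000125597 of Taldo1 were models of Tkt, among which reads are divided. The transcript called was ENSMUST00000022529, the full-length coding transcript of Tkt. It was at 113, 95.3, 107, 95.4 and 99.0 RPKM in KO 1, 4, 7, 8 and 17 and at 205, 260, 185, 260 and 172 RPKM in WT 2, 9, 19, 86 and 89, without overlap. Its log2 value fell by 1.06 (SE 0.13; limma adjusted p = 0.00549).

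Most of the transcript-level RPKM of Tkt was assigned to a short model annotated as a target of nonsense-mediated decay, ENSMUST00000162356, of 5 exons and 465 bases in GENCODE M21 against 14 exons and 3223 bases for the coding transcript. It shares 2 whole exons with the coding transcript and holds an extra exon of 43 bases after the first coding exon, which brings in a stop codon after 42 codons, where the full reading frame has 623. The junctions that distinguish the models are shown 5′ to 3′ from GENCODE M21, with the shared end of the first exon in lower case. In the coding transcript capitals mark the start of the next exon, and in the short model they mark the extra exon as far as its stop codon, TGA.
ENSMUST00000022529: cgcggcaggctcaggCCACCCCACATCATG
ENSMUST00000162356: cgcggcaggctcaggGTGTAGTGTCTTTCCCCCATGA

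The short model was at 317, 203, 307, 216 and 191 RPKM in KO 1, 4, 7, 8 and 17 and at 448, 558, 311, 480 and 447 RPKM in WT 2, 9, 19, 86 and 89. KO 1 and WT 19 overlapped, and the log2 change of -0.87 (SE 0.19) was not called (limma adjusted p = 0.113). Its share of Tkt transcript RPKM was 69.0% ± 4.2 in the KO-labelled group and 65.8% ± 4.0 in WT, and that of the coding transcript 29.2% ± 3.3 and 31.9% ± 3.3 (SD, n = 5 each). Neither share differed detectably (exact permutation p = 0.262 and 0.238; 0.636 for both adjusted over the 14 shares tested). Shares of RPKM are per base of model, so a short model takes a large share from few reads.

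**Figure D3:**
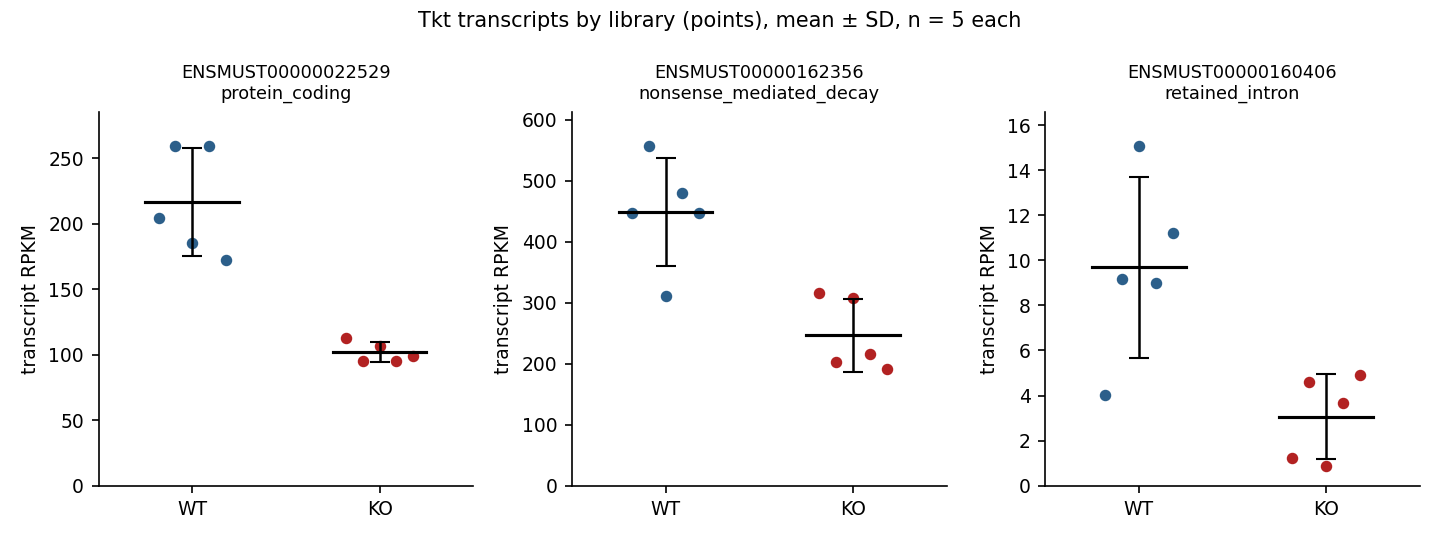
RPKM of 3 Tkt transcripts (y axes from 0, on different scales) in WT (blue) and KO-labelled (red) libraries, with 1 point per library and bars for mean ± SD (n = 5 each). They are ENSMUST00000022529 (coding), ENSMUST00000162356 and the retained-intron ENSMUST00000160406. The last held 0.96% of Tkt transcript RPKM in the KO-labelled group and 1.52% in WT, and was not called (limma adjusted p = 0.250). The coding transcript separates the groups, at 95.3 to 113 against 172 to 260 RPKM, and the other models overlap.

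Of the remaining members, no transcript was called. The retained-intron Taldo1 transcript ENSMUST00000125597 was lower before adjustment, at 1.44 against 2.79 RPKM in WT. Its ratio was 0.601 (95% interval 0.430 to 0.840, limma unadjusted p = 0.00697, adjusted p = 0.270). None of the 14 shares tested, those of Tkt included, passed (0 at an adjusted p under 0.05 and 0 at an unadjusted exact permutation p under 0.05). H6pd RPKM was mostly assigned to ENSMUST00000084117, with 80.6% ± 6.1 in the KO-labelled group and 77.7% ± 3.4 in WT, and ENSMUST00000030830 and ENSMUST00000152907 held 11.8% and 10.2% in WT. Pgd and Taldo1 each had a single transcript at 10% or more, whose share was not tested: ENSMUST00000084124 held 84.7% and 83.8% of Pgd, and ENSMUST00000026576 95.8% and 95.1% of Taldo1. Pgls was divided between ENSMUST00000034264 (73.8% and 80.1%) and ENSMUST00000138742 (20.1% and 12.4%). Rpia was divided between the coding ENSMUST00000066134 (44.9% and 44.1%) and the retained-intron ENSMUST00000129244 (54.2% and 52.8%). For Rpe, the decay-annotated ENSMUST00000190404 held 49.8% and 55.9%, the coding ENSMUST00000027157 39.0% and 31.9%, and ENSMUST00000151016 10.2% and 12.2%, the KO-labelled mean first in each case. Division among G6pdx models varied between libraries, around ENSMUST00000004327 at 63.8% ± 6.6 and 63.0% ± 2.9. ENSMUST00000143521 was at 16.7 RPKM in KO 4, 19.8 RPKM in WT 19 and 8.41 RPKM in WT 86, and at 3.03 RPKM or less in the other 7 libraries. ENSMUST00000135894 of the same gene was lowest in WT 19, at 1.67 RPKM against 13.0 RPKM or more elsewhere.

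The 3 genes tested whose profile over the 10 libraries was closest to that of Tkt were Ppp1r1a, a protein phosphatase inhibitor gene, Pcx, the pyruvate carboxylase gene, and Sik2, a salt-inducible kinase gene. The root mean square difference of the centred log2 values was 0.140, 0.152 and 0.166. Pcx was at 82.6 to 97.4 RPKM in the KO-labelled group and 143 to 240 RPKM in WT, and its KO to WT ratio was 0.467 (95% interval 0.380 to 0.572; limma adjusted p = 0.00127). WT 86 and WT 9 were the highest WT libraries for Tkt, Ppp1r1a, Pcx and Sik2, and WT 89 was lowest for Tkt, Pcx and Sik2. The 3 genes were picked for likeness to Tkt over these same 10 libraries. This order and the fall of Pcx therefore largely follow from the choice.

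Markers of adipocytes were also lower in the KO-labelled group. For comparison with the limma calls below, 1.95% of all genes tested were called lower and 4.00% higher. No such share was taken for the unadjusted or voom counts. Of the 10 adipocyte markers, 9 were called lower and 0 higher (at an unadjusted p under 0.05, 10 and 0). Their log2 changes ran from -2.37 to -0.59. Their summed level was 5328 to 5590 RPKM in the KO-labelled group against 13379 to 19434 RPKM in WT. Cfd (mean 1976 against 8815 RPKM) and Fabp4 (2694 against 4639 RPKM) made up most of it. All summed levels given here are likewise carried mainly by the most abundant markers. Adipoq (adiponectin) changed by -1.21 (SE 0.13) and Plin1 (perilipin, the lipid droplet coat) by -1.18 (SE 0.13) on the log2 scale (limma adjusted p = 5.20e-04 and 8.33e-04), beside -1.03 for Tkt. Both were present in all 10 libraries, at 247 RPKM or more for Adipoq and 109 RPKM or more for Plin1. Macrophage markers had 1 of 10 called higher (5 at an unadjusted p under 0.05, and 3 called by voom), with summed levels of 4813 to 6050 against 3898 to 5198 RPKM, and Adgre1 (log2 change 0.37) and Cd68 (0.46) not called. Neutrophil and monocyte markers had 3 of 8 called higher (7 unadjusted, and 3 by voom), the weakest at a limma adjusted p of 0.0498. Their summed levels were 480 to 847 against 214 to 396 RPKM. Fibroblast and progenitor markers had 1 of 8 called higher (3 unadjusted, and 2 by voom), endothelial 1 of 7 lower, and smooth muscle and pericyte 1 of 6 lower. None was called among the tested markers of T and NK cells (7), B and plasma cells (7), mesothelium (6), red cells (5), and ovary and uterus (4); at an unadjusted p under 0.05, limma found 1 T and NK cell and 2 mesothelial markers higher, and voom on recovered reads called 1 mesothelial marker. Marker calls were not rerun under median-ratio scaling or quantile normalization, which cut the higher calls over all genes, or with a library left out. No marker in these lists was at 0 in all libraries. The part of these markers in the fall of Tkt was not tested.

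**Figure D4:**
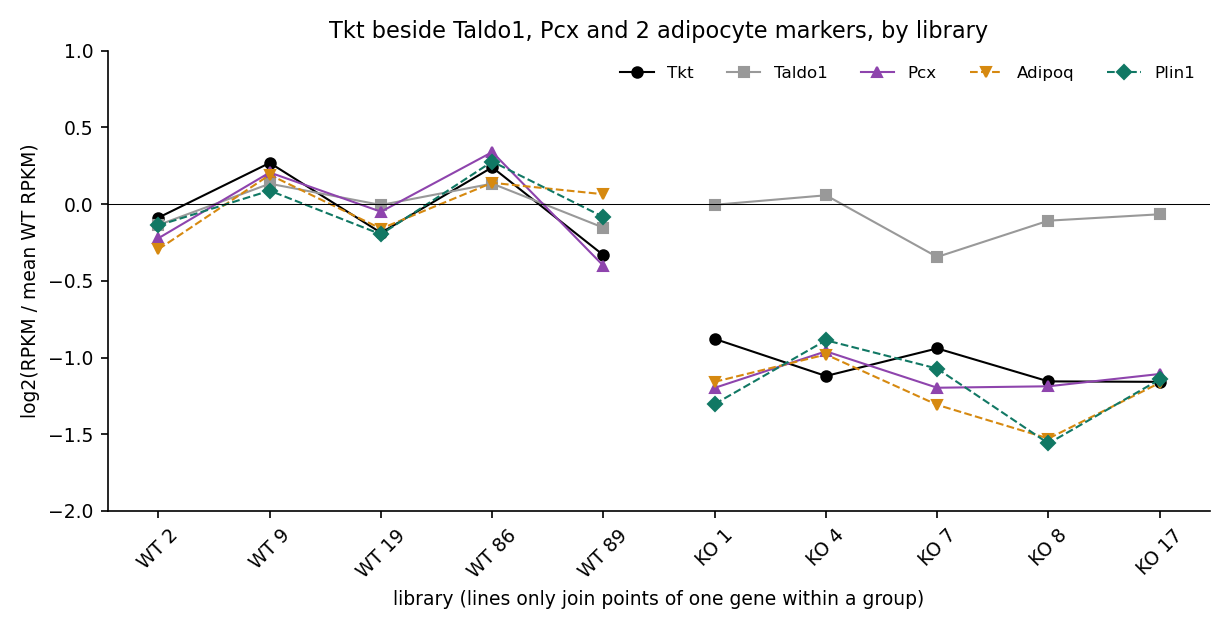
Level of 5 genes in each library as log2 of RPKM over the gene's WT mean (y axis), with WT libraries at left and KO-labelled libraries at right. Tkt, Pcx and the adipocyte markers Adipoq and Plin1 lie lower in all 5 KO-labelled libraries than in any WT library, and Taldo1 overlaps between the groups. Pcx was picked for its likeness to Tkt over these libraries.

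Outside the pathway, the malic enzyme and folate routes to NADPH held called genes. Of 14 genes tested that were listed for routes to NADPH, not all of whose enzymes make it, 2 were called lower and 1 higher. Over all genes tested, 1.95% were called lower and 4.00% higher. At an unadjusted p under 0.05, with no all-gene share for comparison, the list had 2 and 4. Voom on recovered reads called 2 and 2. The median log2 change of the list was 0.11 against 0.089 over all genes. That all-gene median became 0.009 under median-ratio scaling and 0.024 under quantile normalization. The medians of this list and those below are without either. Me1, the cytosolic malic enzyme, was at 11.3, 11.8, 13.1, 10.1 and 11.05 RPKM in KO 1, 4, 7, 8 and 17 and at 42.8, 33.6, 30.5, 62.9 and 22.5 RPKM in WT 2, 9, 19, 86 and 89. Its highest KO-labelled library was well below its lowest WT library, and its log2 value fell by 1.62 (SE 0.23; limma adjusted p = 0.00358). Aldh1l1, the cytosolic 10-formyltetrahydrofolate dehydrogenase, was at 13.9 ± 2.4 RPKM against 28.0 ± 6.8 RPKM in WT (fell by 0.97 on the log2 scale, SE 0.17; limma adjusted p = 0.0109). Me2, the mitochondrial malic enzyme that works mainly with NAD, was at 21.9 ± 1.2 against 18.2 ± 0.7 RPKM (log2 change 0.26, SE 0.05; limma adjusted p = 0.0235). That call ended without KO 8, KO 17 or WT 86, at log2 changes of 0.24 to 0.28 over the 10 left-out runs, and under median-ratio scaling (0.17, adjusted p = 0.141) and quantile normalization (0.18, adjusted p = 0.116). The mitochondrial folate enzyme genes Mthfd2, Mthfd1l and Aldh1l2, named after their values were seen, had log2 changes of 0.37, 0.35 and 0.39 and were not called (limma adjusted p 0.119, 0.108 and 0.107). Idh1, the cytosolic isocitrate dehydrogenase and the most abundant of the list, was at 128 ± 12 and 117 ± 11 RPKM and was not called (limma adjusted p = 0.388). Nadk, the NAD kinase that supplies NADP, was at 64.6 ± 3.3 and 69.0 ± 5.3 RPKM and was not called (limma adjusted p = 0.438).

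**Figure D5:**
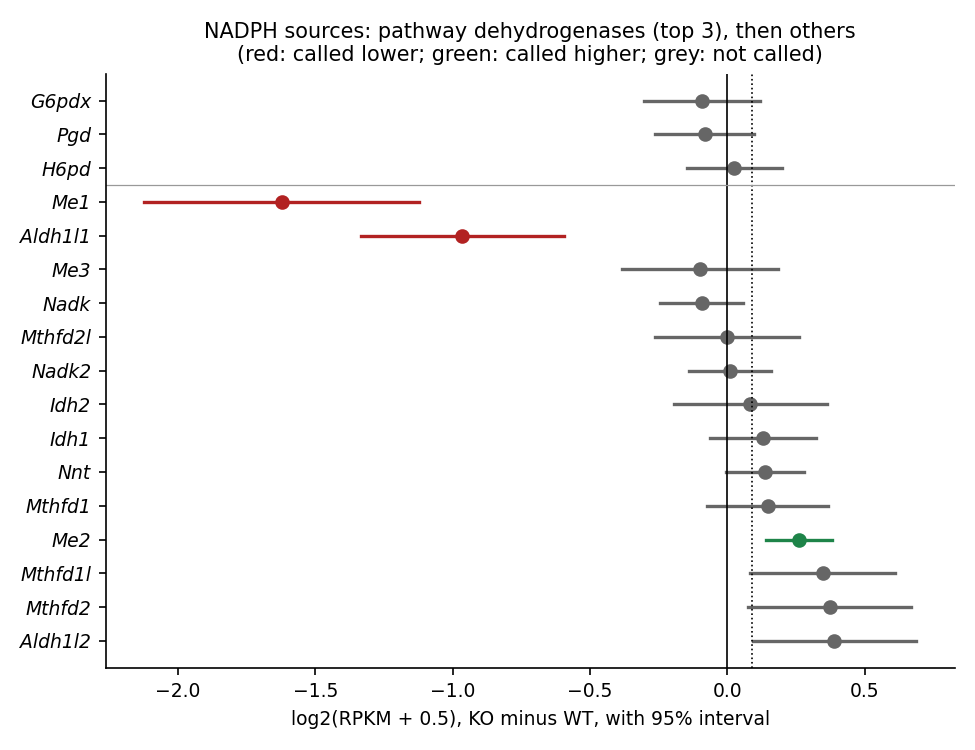
Log2 change, KO-labelled minus WT, with its 95% interval from limma (x axis). Shown are the pathway's NADPH-producing dehydrogenase genes (top 3) and the 14 other genes listed for routes to NADPH. Me1 (-1.62) and Aldh1l1 (-0.97) were called lower, in red, and Me2 (0.26) higher, in green, while G6pdx, Pgd and H6pd lie between -0.09 and 0.03.

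Among 14 tested genes of enzymes that spend NADPH, 2 were called lower and 0 higher, beside 1.95% and 4.00% of all genes tested. At an unadjusted p under 0.05, with no all-gene share for comparison, there were 2 and 3. Voom on recovered reads called 2 and 0. The median log2 change of these 14 genes was 0.07, against 0.089 over all genes. Fasn, the fatty acid synthase and the most abundant of them, was at 126 ± 10 against 623 ± 181 RPKM (fell by 2.25 on the log2 scale, SE 0.19; limma adjusted p = 9.29e-05). Por, the reductase that hands electrons to microsomal cytochromes P450, was at 68.6 ± 3.2 against 100.4 ± 6.8 RPKM (fell by 0.55, SE 0.06; limma adjusted p = 0.00116). The glutathione reductase gene Gsr was at 44.4 ± 5.2 against 36.1 ± 2.7 RPKM and did not pass (limma adjusted p = 0.0718).

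At the branch point with glycolysis, 1 of 16 genes for glucose supply and glycolysis was called lower and 0 higher. Over all genes tested the shares were 1.95% and 4.00%. At an unadjusted p under 0.05, with no all-gene share for comparison, the list had 2 and 5. Voom on recovered reads called 1 and 1. Its median log2 change was 0.16, against 0.089 over all genes, both before any further scaling. The gene called was Slc2a4, the insulin-responsive glucose transporter GLUT4, at 15.7 ± 2.9 against 32.2 ± 6.6 RPKM (fell by 1.01, SE 0.16, limma adjusted p = 0.00645). Aldoa, the aldolase gene and the most abundant of this list, was at 314 ± 26 and 316 ± 28 RPKM. Leaving out WT 2 gave 1 higher call.

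Genes at the edges of the pathway had 2 called higher and 1 lower of 11 tested, beside 4.00% and 1.95% of all genes tested. At an unadjusted p under 0.05, with no all-gene share for comparison, there were 3 and 1. Voom on recovered reads called 1 and 1. The median log2 change of these edge genes was 0.08, against 0.089 over all genes. Prps1 and Prps2 encode the synthetases that turn ribose 5-phosphate into the nucleotide precursor phosphoribosyl pyrophosphate, and they were called in opposite directions. Prps1 was at 9.30 ± 0.65 against 11.5 ± 0.9 RPKM (fell by 0.29, SE 0.07; limma adjusted p = 0.0357) and Prps2 at 8.25 ± 0.50 against 6.93 ± 0.40 RPKM (log2 change 0.24, SE 0.06; limma adjusted p = 0.0480). Pgm2, a phosphopentomutase gene, was at 11.1 ± 1.1 against 8.73 ± 0.48 RPKM (log2 change 0.33, SE 0.07; limma adjusted p = 0.0312). All 3 calls ended when no filter was used (adjusted p 0.0543 for Pgm2, 0.0610 for Prps1 and 0.0785 for Prps2), and median-ratio scaling and quantile normalization ended both higher calls. Leaving out any 1 library ended that of Prps2, any but KO 4 or WT 2 that of Pgm2, and any but KO 17 or WT 19 that of Prps1. Pgm1, the most abundant of the list, was at 27.2 ± 2.4 and 30.3 ± 4.3 RPKM. The near-copies G6pd2, Tktl1 and Tktl2 stayed at or under 0.158 RPKM in every library and were not tested.

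NRF2, a transcription factor of the antioxidant response, is known to act on several pathway genes. Of 14 of its targets outside the pathway, 1 was called higher and 0 lower, beside 4.00% and 1.95% of all genes tested. At an unadjusted p under 0.05, with no all-gene share for comparison, there were 5 and 0. Voom on recovered reads called 1 and 0. The median log2 change of the targets was 0.21, against 0.089 over all genes, both before any further scaling. The gene called was Osgin1, an oxidative stress-induced growth inhibitor, at 4.39 ± 0.74 against 2.90 ± 0.37 RPKM (log2 change 0.52, SE 0.12, limma adjusted p = 0.0308). That call was kept without KO 4, KO 7 or WT 2, ended without each of the other libraries, and ended with no filter and under both scalings (adjusted p 0.0503 to 0.0664). Fth1, the ferritin heavy chain gene and the most abundant of the list, was at 2811 ± 477 and 2742 ± 497 RPKM.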

How the data were processed

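RNA-seq of 5 KO-labelled and 5 WT libraries was analysed from a gene and a transcript table of RPKM values that the authors deposited. Per the submitters' processing notes, bcl2fastq, STAR, Subread and featureCounts were used. Of the genome build, the annotation and the division of reads among transcripts the sources used here say nothing, and the unit of the transcript table rests on its file name. Repeated rows with the same values were used once (40770 rows for 40503 genes, 84752 for 84046 transcripts). Features at 0.5 RPKM or more in at least 5 libraries were tested, 17038 genes and 44475 transcripts. The fit of log2(RPKM + 0.5) used limma 3.58.1 and R 4.3.3 (eBayes with trend and robust, statmod 1.5.0, 2-sided), with Benjamini-Hochberg adjustment over all features and calls under 0.05. Fold changes are on that scale and understate those of low genes.

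Whole reads were recovered from the RPKM for 25121 of 25122 genes above 0 in at least 3 libraries, within 0.001 reads, and served for depth and for voom. The GENCODE M21 length gave whole reads for 16193 of them. For the others, Tkt and Taldo1 included, the smallest length giving whole reads was used, so their read counts rest on an inferred length. The voom fit and the ratios of Tkt to other members were added after seeing the data. Transcript shares of 10% or more in a group were compared by exact permutation where a gene had more than 1 such transcript. The scripts were tested on simulated data. Promoters are RefSeq's (GRCm38.p6; 8 of 8 genes matched by symbol), and transcript models GENCODE M21's.

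The members and lists were chosen with earlier results of these data known. Named were all 8 genes and Med19, up to 3 called genes with the largest change and the most abundant gene of each list, the 3 genes closest in profile to each called member, transcripts with a share of 10% or more, and Adipoq, Plin1, Adgre1 and Cd68. Hsd11b1, Slc37a4, Nadk, Gsr, Mthfd2, Mthfd1l, Aldh1l2, G6pd2, Tktl1, Tktl2, Cfd and Fabp4 were named after their values were seen. So were the G6pdx transcript ENSMUST00000143521 and the Taldo1 transcript ENSMUST00000125597. The Tkt transcript ENSMUST00000160406 was drawn although its share was under 10%. Alternatives were leaving out each library, array weights, plain eBayes, quantile normalization, median-ratio scaling, a pseudocount of 0.1 or 1, and filtering at 1 RPKM or not at all. The labels give each library its own number, read here as that of an animal, and p-values measure the spread between these libraries.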

Additional observations from a re-analysis of the deposited data

Results flagged for a closer look

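Of 70 groups of 5 libraries checked for a library far from the others, 2 stood out, and chance alone flags about 1 group in 20. Among the KO-labelled libraries Prps1 was at 10.5 RPKM in KO 17 and at 8.87 to 9.18 RPKM in the other 4, a gap of 0.806 of the group's range. The Taldo1 coding transcript ENSMUST00000026576 was at 114 RPKM in KO 7 and at 139 to 146 RPKM in the other 4 KO-labelled libraries, a gap of 0.776 of the range. At the gene level Taldo1 was also lowest in KO 7, at 77.2 RPKM.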

How the results depend on the processing

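The fall of Tkt kept its direction and its call in all 10 runs that left out a library (log2 change -1.10 to -0.95, limma adjusted p 0.00118 to 0.00540) and under the 9 other settings (-1.12 to -1.02, adjusted p 5.59e-05 to 0.00279), and 1 member lower and 0 higher were called in each of these. The coding Tkt transcript likewise kept its call under the 4 other settings run for transcripts (-1.11 to -1.06) and without each library (-1.14 to -0.99). Of the 7 uncalled changes, those of G6pdx, Pgd, Rpe and Taldo1 kept their sign in all 9 settings and 10 left-out runs, and those of H6pd, Pgls and Rpia did not: under median-ratio scaling and quantile normalization H6pd was at -0.066 and -0.059, of Pgls -0.036 and -0.031, and of Rpia -0.041 and -0.026. Over left-out libraries they ranged from -0.0087 to 0.083 for H6pd (negative without KO 4 or KO 17), -0.057 to 0.13 for Pgls and -0.032 to 0.097 for Rpia (both negative without KO 4). The log2 difference of Med19 was -0.067 under median-ratio scaling and -0.045 to 0.083 over left-out libraries (negative without KO 1, WT 19 or WT 89), and the cause of these changes was not tested. Genes called higher, 681, became 292 with no filter, 102 with median-ratio scaling and 149 with quantile normalization, and 188 to 689 over left-out libraries, by over 1.5 times without any but KO 4 or WT 2. Genes called lower, 332, became 206 to 314 over left-out libraries (206 without KO 1). Among edge genes of the pathway the higher calls became 0 with no filter, 0 with median-ratio scaling, 0 with quantile normalization and 1 with plain eBayes, and 0 to 1 over left-out libraries, and the lower call became 0 with no filter and 0 to 1. Higher calls became 0 under both scalings for the other genes of routes to NADPH and for NRF2 targets, and 0 with no filter for the latter. Over left-out libraries both ranged from 0 to 1, as did those of glucose supply and glycolysis. No paired analysis was possible because the labels give the groups no shared number. Among the 8 genes counting error was largest for Rpia, at 294 reads in its shallowest library, and Med19 had 173 reads at its lowest.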
